A study of Mus musculus with 15 samples.

Results

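The genes described here are those of the DNA methylation machinery. They were chosen by name as enzymes that write, maintain or oxidise methylated cytosine, or as proteins that act with these enzymes. They are *Dnmt1*, *Uhrf1*, *Dnmt3a*, *Dnmt3b*, *Dnmt3l*, *Tet1*, *Tet2* and *Tet3*, and all 8 are among the 17454 genes of the deposited table. DNA methyltransferases place methyl groups on cytosine in CpG. Dnmt1, guided by Uhrf1, copies the pattern after replication, Dnmt3a and Dnmt3b set new marks with Dnmt3l as a cofactor in germ cells, and Tet dioxygenases oxidise methylcytosine, the first step of its removal. Polycomb repressive complex 2 (PRC2), whose catalytic subunit is Ezh2, silences genes through methylation of histone H3 rather than of DNA.

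RNA was sequenced from erythro-myeloid progenitors (EMPs), the yolk sac (YS) precursors of definitive red and myeloid cells, of C57BL/6 mouse embryos at E10.5. All groups, controls included, carried Ezh2fl/fl. The Cre lines were *Tie2*-Cre and *Vav*-iCre, the latter written Vav-Cre in the genotypes given here. Tie2-Ezh2-KO (Tie2-CreTg/+, 5 libraries) lost *Ezh2* in endothelium before EMPs form, and Vav-Ezh2-KO (Vav-CreTg/+, 5 libraries) in hematopoietic cells, while their controls without Cre (Tie2-Cre+/+ and Vav-Cre+/+) were Tie2-Ezh2-WT (3 libraries) and Vav-Ezh2-WT (2 libraries), together called WT. Each library came from an individual YS, and held 10407398 to 41025074 reads on genes (median 16091836). The labels give 500 cells per library, and the study's text gives a different number. *Tie2*-Cre acts in all endothelium and its progeny, so that cells other than EMPs also lost *Ezh2*.

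*Ezh2* and the EMP markers were read first as a check of the labels. *Ezh2* (GRCm38, chromosome 6, 47530274 to 47595270) averaged 27.0 ± 1.78 RPKM (mapped reads relative to library size and gene length; SD, n = 5) in Tie2-Ezh2-KO, 37.2 ± 3.56 RPKM (SD, n = 5) in Vav-Ezh2-KO and 38.0 ± 4.84 RPKM (SD, n = 5) in WT libraries. Each Tie2-Ezh2-KO value was under each WT value, whereas Vav-Ezh2-KO values overlapped with WT. The limma call for Tie2-Ezh2-KO was lost in 11 of 22 alternatives. Values cover the whole gene, with the deleted exons not separated, so the Vav-Ezh2-KO label could not be checked on *Ezh2*. The 10 EMP markers, among them *Kit*, *Itga2b* and *Gata1*, were all above 0 in all 15 libraries, with sums of 986.9 to 1121 RPKM in Tie2-Ezh2-KO, 842.9 to 982.5 RPKM in Vav-Ezh2-KO and 908.0 to 1048 RPKM in WT libraries, *Gfi1b* being the most abundant.

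Markers of other cells were summed in the same way. EMPs had been sorted as KIT+, CD41+ and CD16/CD32+ cells negative for SCA1 and for lineage antigens, a gate set to remove mature blood cells. The sorting antibodies listed include TER119, which the study used to mark primitive erythroid cells. The 7 primitive erythroid markers, led by *Hbb-bh1*, summed to 319.4, 590.2, 865.3, 200.2 and 291.7 RPKM for replicates 7, 9, 11, 13 and 17 of Tie2-Ezh2-KO, against 72.5 to 151.2 RPKM in WT and 66.0 to 160.0 RPKM in Vav-Ezh2-KO libraries, with *Slc4a1* at 0 in 13 of 15 libraries. The 10 visceral endoderm markers, led by *Trf*, summed to 276.1 RPKM in Tie2-Ezh2-KO replicate 7 and 199.4 RPKM in Tie2-Ezh2-WT replicate 4, against 10.3 to 34.8 RPKM in the other libraries, where 1 to 5 of the 10 were at 0, *Hnf4a* in 9 of 15 libraries overall. Every Tie2-Ezh2-KO library (24.3 RPKM or more) was above every Vav-Ezh2-KO library (21.6 RPKM or less) in this sum. Of the tested markers 8 of 8 were higher in Tie2-Ezh2-KO than in Vav-Ezh2-KO (median log2 difference 1.71), 8 of 8 higher in Tie2-Ezh2-KO than in WT (0.44) and 7 of 7 lower in Vav-Ezh2-KO than in WT (-1.11). Markers were tested if above 0.2 RPKM in any 1 library fitted. *Cubn*, *Amn* and *Apoa4* entered the comparison of the deletions only through Tie2-Ezh2-KO libraries. *Cubn* entered Tie2-Ezh2-KO against WT only through Tie2-Ezh2-KO, and *Amn* and *Apoa4* entered Vav-Ezh2-KO against WT only through WT. The filter thus favors these directions for them. Endothelial markers (8 genes, led by *Pecam1*) summed to 26.7 to 56.2 RPKM with *Cdh5* at most 0.349 RPKM, mesenchymal markers (8 genes, led by *Postn*) to 0.256 to 2.06 RPKM, and macrophage markers (8 genes, led by *Cd68*) to 9.41 to 28.2 RPKM with *C1qa* at 0 in every library. The most abundant endothelial markers were *Pecam1* (16.7 RPKM on average) and *Esam* (12.1 RPKM). *Pecam1* differed by -0.62 in Tie2-Ezh2-KO against WT and by -0.72 against Vav-Ezh2-KO, while the other 7 were higher in both (medians of all 8, 0.26 and 0.53; 2 and 4 of 8 at an unadjusted p under 0.05, none past the threshold with limma). Megakaryocyte markers (7 genes) summed to 139.7 to 360.1 RPKM. Germ cell and pluripotency markers (6 genes) summed to 27.4 to 71.9 RPKM, nearly all of it *Nanog*, and *Pou5f1* is not in the table. Two-sided exact permutation tests of these sums, without adjustment, are given for Tie2-Ezh2-KO against WT, Vav-Ezh2-KO against WT and Tie2-Ezh2-KO against Vav-Ezh2-KO in that order. The exact permutation p was 0.238, 0.167 and 0.00794 for EMP markers, 0.00794, 0.841 and 0.00794 for primitive erythroid, 0.484, 0.0397 and 0.00794 for visceral endoderm and 0.484, 0.492 and 0.0397 for macrophage markers. For the other marker lists the exact permutation p was 0.0952 to 0.944. In Tie2-Ezh2-KO against Vav-Ezh2-KO 5 EMP markers were higher and 5 lower (median -0.03), from *Gfi1b* (0.57) to *Fcgr3* (-0.52). Of the tested macrophage markers 2 were higher and 5 lower (median -0.18), *Lyve1* being the highest (1.71, adjusted p = 0.0511 with limma). With limma, at an adjusted p under 0.05, *Hba-x* (6.33), *Amn* (3.01, at 1.52 to 4.66 RPKM against at most 0.798 RPKM) and *Hbb-bh1* (1.18) were higher and *Gp1ba* (-0.94) lower on the log2 scale in Tie2-Ezh2-KO than in WT. Against Vav-Ezh2-KO, Tie2-Ezh2-KO was higher in *Hba-x*, *Amn*, *Hbb-bh1* and *Gfi1b* and lower in *Cd68* and *Prdm1*, and *Nanog* was higher in Tie2-Ezh2-WT than in Vav-Ezh2-WT. The difference between the effects passed for *Hba-x*. The part of these markers in the values below was not tested, and in bulk RNA fewer cells of a type and less RNA per cell cannot be told apart.

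Over the 15 libraries the genes of DNA methylation fell into an upper and a lower tier. *Uhrf1* (37.2 ± 12.6 RPKM, SD, n = 15) and *Dnmt3b* (36.0 ± 10.01 RPKM, SD, n = 15) were the most abundant and did not differ beyond their spread, *Uhrf1* being the higher in 7 of 15 libraries. *Dnmt1* followed at 14.0 ± 5.32 RPKM (SD, n = 15) and *Dnmt3a* at 8.02 ± 1.76 RPKM (SD, n = 15), and the order *Dnmt3b*, *Dnmt1*, *Dnmt3a* held in 15 of 15 libraries. The Tet genes lay far lower, *Tet2* at 0.858 ± 0.398, *Tet3* at 0.706 ± 0.257 and *Tet1* at 0.194 ± 0.100 RPKM (SD, n = 15). *Tet2* exceeded *Tet3* in 9 of 15 libraries, within their spread, and *Tet3* exceeded *Tet1* in all 15. *Dnmt3l* was at or near 0.

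**Figure D1:**
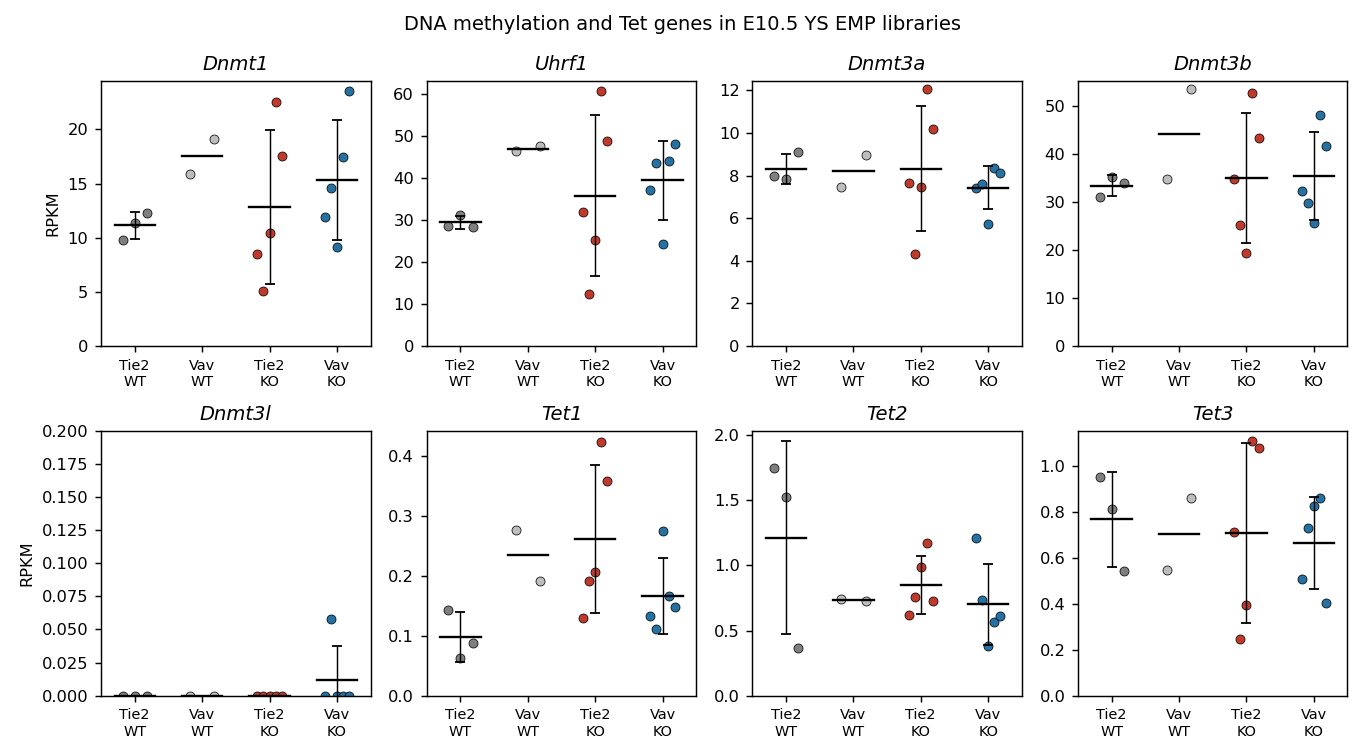
RPKM of the 8 genes in each library (points) by group, with the mean (line) and SD (bars, groups of 3 or more libraries). The Tie2-Ezh2-KO libraries spread from 5.08 to 22.6 RPKM for *Dnmt1* and from 12.3 to 60.7 RPKM for *Uhrf1*, a wider range than in any other group, and *Dnmt3l* is at 0 in 14 libraries.

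*Dnmt1*, the maintenance methyltransferase, occupies 20907206 to 20959888 of chromosome 9. In controls, *Dnmt1* stood at 9.83, 11.3 and 12.3 RPKM in replicates 4, 10 and 12 of Tie2-Ezh2-WT and at 15.9 and 19.15 RPKM in replicates 4 and 6 of Vav-Ezh2-WT. Replicates 7, 9, 11, 13 and 17 of Tie2-Ezh2-KO gave 8.52, 5.08, 10.46, 22.6 and 17.6 RPKM. Replicates 1, 9, 10, 26 and 28 of Vav-Ezh2-KO gave 11.9, 14.6, 9.19, 17.4 and 23.6 RPKM. Tie2-Ezh2-KO replicates 7 and 9 lay below and replicate 13 above every WT library, so that this group straddled the controls, and the Vav-Ezh2-KO libraries overlapped with both.

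*Uhrf1*, at 56303337 to 56323486 of chromosome 17, encodes the protein that binds hemimethylated CpG and brings Dnmt1 to newly copied DNA. It was at 28.7, 31.3 and 28.4 RPKM in Tie2-Ezh2-WT and at 46.5 and 47.5 RPKM in Vav-Ezh2-WT libraries, in the order of replicates used for *Dnmt1*. Tie2-Ezh2-KO libraries had 31.9, 12.3, 25.2, 60.7 and 48.8 RPKM. Vav-Ezh2-KO libraries had 37.2, 43.5, 24.2, 44.1 and 48.2 RPKM. As for *Dnmt1*, the lowest value of all was in Tie2-Ezh2-KO replicate 9. The highest *Uhrf1* was in replicate 13 of the same group, whereas the highest *Dnmt1* was in Vav-Ezh2-KO replicate 28. The highest value was 4.92 times the lowest within Tie2-Ezh2-KO, against 1.99 times in Vav-Ezh2-KO and 1.68 times in WT.

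Expression was compared with limma on log2(RPKM + 0.2), genes counting as past the threshold at a Benjamini-Hochberg adjusted p under 0.05. Deletion from the endothelial stage was addressed by Tie2-Ezh2-KO against WT, in which the limma differences were -0.24 for *Dnmt1* (standard error 0.33, adjusted p = 0.915) and -0.18 for *Uhrf1* (standard error 0.33, adjusted p = 0.943). Deletion from the hematopoietic stage was addressed by Vav-Ezh2-KO against WT, with differences of 0.13 for *Dnmt1* (standard error 0.23, adjusted p = 0.912 with limma) and 0.11 for *Uhrf1* (standard error 0.20, adjusted p = 0.909 with limma). The deletions were also set against each other without the shared controls. There *Dnmt1* differed by -0.37 (95% interval -1.10 to 0.37) and *Uhrf1* by -0.30 (-1.01 to 0.42). With 1 library left out these differences ran from -0.61 to -0.086 for *Dnmt1* and from -0.54 to 0.035 for *Uhrf1*. All of these lie within the spread of the libraries. In Tie2-Ezh2-KO against WT, leaving out replicate 9 of the knockout turned the direction of both, to 0.04 for *Dnmt1* and 0.15 for *Uhrf1*, and leaving out replicate 13 gave -0.48 and -0.42. The intervals leave room for levels up to 1.92-fold lower *Dnmt1* in Tie2-Ezh2-KO than in WT, so similar levels were not shown.

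The controls of the Cre lines were also set against each other. All 3 Tie2-Ezh2-WT libraries lay below both Vav-Ezh2-WT libraries for *Dnmt1*, *Uhrf1* and *Tet1*. Groups that did not overlap, in either direction, were seen for 26.0% of all 13100 genes tested in this comparison. The differences were -0.67 for *Uhrf1* (standard error 0.13, adjusted p = 0.118 with limma) and -0.64 for *Dnmt1* (standard error 0.19, adjusted p = 0.345 with limma), neither past the threshold. Their unadjusted p values with limma were 5.33e-04 and 0.00692, and 8.92% of all genes tested had an unadjusted p under 0.05. Of the 20 replication and cell cycle genes, 14 were lower in Tie2-Ezh2-WT, down to -0.62 for *E2f1* (standard error 0.16), and 6 were higher, up to 0.47 for *Ccnb1* (standard error 0.12). Counting both directions, 7 had an unadjusted p under 0.05. With 3 against 2 libraries an exact permutation test cannot go below p = 0.2. Which controls were used turned the direction: against the WT libraries of the same Cre line, Tie2-Ezh2-KO differed by 0.02 in *Dnmt1* and 0.09 in *Uhrf1*, and Vav-Ezh2-KO by -0.26 and -0.29. The study's experiments are not assigned to libraries in the labels, so that Cre line and experiment cannot be told apart.

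*Dnmt3a*, one of the enzymes that methylate DNA de novo, occupies 3801559 to 3914443 of chromosome 12. In controls, *Dnmt3a* stood at 7.98, 7.85 and 9.11 RPKM in replicates 4, 10 and 12 of Tie2-Ezh2-WT and at 7.49 and 8.99 RPKM in replicates 4 and 6 of Vav-Ezh2-WT. Replicates 7, 9, 11, 13 and 17 of Tie2-Ezh2-KO gave 7.65, 4.31, 7.47, 12.1 and 10.2 RPKM. Replicates 1, 9, 10, 26 and 28 of Vav-Ezh2-KO gave 7.42, 7.58, 5.74, 8.36 and 8.10 RPKM. The WT libraries were the tightest group, the highest 1.22 times the lowest, while Tie2-Ezh2-KO had 2 libraries below and 2 above all of them. *Dnmt3a* differed by -0.07 in Tie2-Ezh2-KO (95% interval -0.56 to 0.43) and by -0.16 in Vav-Ezh2-KO (-0.46 to 0.14) against WT.

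*Dnmt3b*, at 153649411 to 153687730 of chromosome 2, encodes the other active de novo enzyme. It had 30.9, 35.1 and 33.9 RPKM in Tie2-Ezh2-WT and 34.8 and 53.4 RPKM in Vav-Ezh2-WT libraries, in the same order of replicates. Tie2-Ezh2-KO libraries had 34.7, 25.1, 19.3, 52.7 and 43.2 RPKM. Vav-Ezh2-KO libraries had 32.2, 29.7, 25.7, 47.9 and 41.7 RPKM. Vav-Ezh2-WT replicate 6 stood above the other WT libraries, and here the lowest library was Tie2-Ezh2-KO replicate 11 rather than replicate 9. The groups overlapped, with differences of -0.17 in Tie2-Ezh2-KO (95% interval -0.67 to 0.34) and -0.09 in Vav-Ezh2-KO (-0.47 to 0.28) against WT.

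*Dnmt3b* had the highest RPKM of the de novo genes in every library. RPKM divides the reads by a gene length, here 9947 bp for *Dnmt3a* and 4327 bp for *Dnmt3b*. In reads *Dnmt3b* was also the higher in every library, but by less. It had 1237 reads against 1101 in Tie2-Ezh2-KO replicate 11 and 1391 against 826 in Tie2-Ezh2-WT replicate 4. The length of the transcripts present was not tested. *Dnmt3b* made up 81.6 ± 2.69% (SD, n = 5) of the RPKM of *Dnmt3a* and *Dnmt3b* in WT, 82.3 ± 2.15% (SD, n = 5) in Vav-Ezh2-KO and 80.3 ± 4.93% (SD, n = 5) in Tie2-Ezh2-KO libraries. The median ratio of *Dnmt3b* to *Dnmt3a* was 4.48 (2.58 to 5.94 over 15 libraries). Tie2-Ezh2-KO replicate 11 had the lowest share of *Dnmt3b*, 72.1%, and the other 14 libraries lay between 78.8% and 85.6%. *Dnmt1* and *Uhrf1* kept a median ratio of *Uhrf1* to *Dnmt1* of 2.69 (2.04 to 3.75).

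*Dnmt3l*, at 78042287 to 78063622 of chromosome 10, encodes a cofactor of de novo methylation that has no catalytic activity of its own. It was listed at 0 in 14 of 15 libraries and had 2 reads, or 0.0576 RPKM, in Vav-Ezh2-KO replicate 9 (exact 95% Poisson interval 0.242 to 7.22 reads). A count of 0 allows up to 3 reads, which is 0.0388 to 0.153 RPKM depending on the library. Such limits cover counting error only, because cDNA amplified by PCR does not give independent molecules. *Dnmt3l* did not pass the filter of 0.2 RPKM in at least 1 library and was not tested, which left 7 of the 8 genes in each fit.

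*Tet1*, at 62804570 to 62887469 of chromosome 10, encodes a dioxygenase with a CXXC domain that is best known from pluripotent and germ cells. In controls, *Tet1* stood at 0.143, 0.0629 and 0.0883 RPKM in replicates 4, 10 and 12 of Tie2-Ezh2-WT and at 0.277 and 0.192 RPKM in replicates 4 and 6 of Vav-Ezh2-WT. Replicates 7, 9, 11, 13 and 17 of Tie2-Ezh2-KO gave 0.129, 0.191, 0.206, 0.423 and 0.357 RPKM. Replicates 1, 9, 10, 26 and 28 of Vav-Ezh2-KO gave 0.133, 0.112, 0.274, 0.167 and 0.148 RPKM. *Tet1* exceeded 0.2 RPKM in 5 of 15 libraries, and 14 to 160 reads stood behind each value. Tie2-Ezh2-KO replicates 13 and 17 were above all WT and Vav-Ezh2-KO libraries, and the other 3 libraries of the group were within their range.

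The difference in *Tet1* was 0.38 in Tie2-Ezh2-KO against WT (standard error 0.28, adjusted p = 0.786 with limma; two-sided exact permutation test, p = 0.159). In Vav-Ezh2-KO against WT it was 0.07 (standard error 0.26, adjusted p = 0.960 with limma). Each deletion set against the controls of its own line gave a difference between the effects of 0.85 (95% interval -0.03 to 1.73, adjusted p = 0.790 with limma) for *Tet1*, and 0.28 to 2.02 over the settings tried. The value for Tie2-Ezh2-KO moved between 0.05 and 1 with the settings tried, without a change of direction.

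*Tet2*, which restrains the expansion of blood progenitors and is often mutated in myeloid disease, occupies 133463677 to 133545136 of chromosome 3. It had 1.75, 1.52 and 0.369 RPKM in Tie2-Ezh2-WT and 0.739 and 0.726 RPKM in Vav-Ezh2-WT libraries, in the order of replicates given for *Tet1*. Tie2-Ezh2-KO libraries had 0.622, 0.755, 0.985, 1.17 and 0.724 RPKM. Vav-Ezh2-KO libraries had 1.21, 0.733, 0.381, 0.568 and 0.611 RPKM. The WT libraries held both the highest values and the lowest one, and all knockout libraries fell inside their range. Differences against WT were -0.10 in Tie2-Ezh2-KO (95% interval -0.85 to 0.65) and -0.36 in Vav-Ezh2-KO (-1.13 to 0.41). With 1 library left out they ran from -0.34 to 0.105 and from -0.60 to -0.16. There were 59 to 314 reads of *Tet2* per library.

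*Tet3*, at 83362373 to 83457208 of chromosome 6, encodes the dioxygenase known for the oxidation of paternal DNA in the zygote. It had 0.952, 0.812 and 0.543 RPKM in Tie2-Ezh2-WT and 0.548 and 0.859 RPKM in Vav-Ezh2-WT libraries. Tie2-Ezh2-KO libraries had 0.714, 0.246, 0.396, 1.11 and 1.08 RPKM. Vav-Ezh2-KO libraries had 0.506, 0.732, 0.827, 0.861 and 0.406 RPKM. As for *Uhrf1* and *Dnmt3a*, Tie2-Ezh2-KO replicate 9 was lowest and replicate 13 highest in *Tet3*, and 41 to 325 reads stood behind each value. Its differences against WT were -0.15 in Tie2-Ezh2-KO (95% interval -0.88 to 0.58) and -0.13 in Vav-Ezh2-KO (-0.70 to 0.43).

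The 3 Tet genes together reached 1.92 ± 0.720 RPKM (SD, n = 5) in WT, 1.53 ± 0.247 RPKM (SD, n = 5) in Vav-Ezh2-KO and, in Tie2-Ezh2-KO libraries, 1.82 ± 0.606 RPKM (SD, n = 5). *Tet2* was the highest of them in 9 libraries and *Tet3* in 6. *Tet1* made up 9.00 ± 5.81% (SD, n = 5) of their RPKM in WT, 11.2 ± 4.71% (SD, n = 5) in Vav-Ezh2-KO and 14.0 ± 3.20% (SD, n = 5) in Tie2-Ezh2-KO libraries, with overlapping ranges.

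Read together against all genes, none of the 7 genes tested was past the threshold in any comparison with limma. In Tie2-Ezh2-KO against WT the count was 0 of 7, with 2.73% of all 14154 genes past the threshold, and at an unadjusted p under 0.05 it was also 0 of 7, against 1552 of all genes tested. In Vav-Ezh2-KO against WT it was 0 of 7 by both measures, with 0.00733% of all 13646 genes past the threshold (*Sva* alone, outside the genes chosen for naming) and 7.93% at an unadjusted p under 0.05. In Tie2-Ezh2-KO against Vav-Ezh2-KO it was 0 of 7 by both, with 3.51% and 16.6% of all 14120 genes. Between the WT groups it was 0 of 7, with 0.153% of all genes past the threshold, and 2 of 7 at an unadjusted p under 0.05, against 8.92% of all 13100 genes. For the difference between the effects of the deletions it was 0 of 7 by both, with 0.181% and 6.54% of all 14394 genes. limma-voom on recovered reads, fitted to every comparison except that between the WT groups, likewise put 0 of 7 past the threshold.

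Exact permutation tests over the 252 ways to divide 10 libraries, whose smallest p is 0.00794, gave p between 0.159 and 0.825 for these 7 genes in Tie2-Ezh2-KO against WT. In Vav-Ezh2-KO against WT the exact p lay between 0.191 and 0.675, and between the deletions from 0.167 to 0.960. No member's groups were apart in these comparisons, in which 4.01%, 1.41% and 5.23% of all genes tested had groups that did not overlap. The comparisons against WT share their 5 controls. The median difference of all genes was 0.01, -0.02 and 0.04 on the log2 scale in the same order, and it was -0.21, 0.12 and -0.33 for the maintenance genes, -0.12, -0.13 and 0.01 for the tested de novo genes and -0.10, -0.13 and 0.26 for the Tet genes. A p above the threshold does not show equal levels, and among these comparisons of 5 against 5 libraries the interval bound farthest from 0 was that of *Tet2* in Vav-Ezh2-KO against WT, at 2.18-fold. It was farther, at 3.33-fold, for *Tet1* in the difference between the effects.

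**Figure D2:**
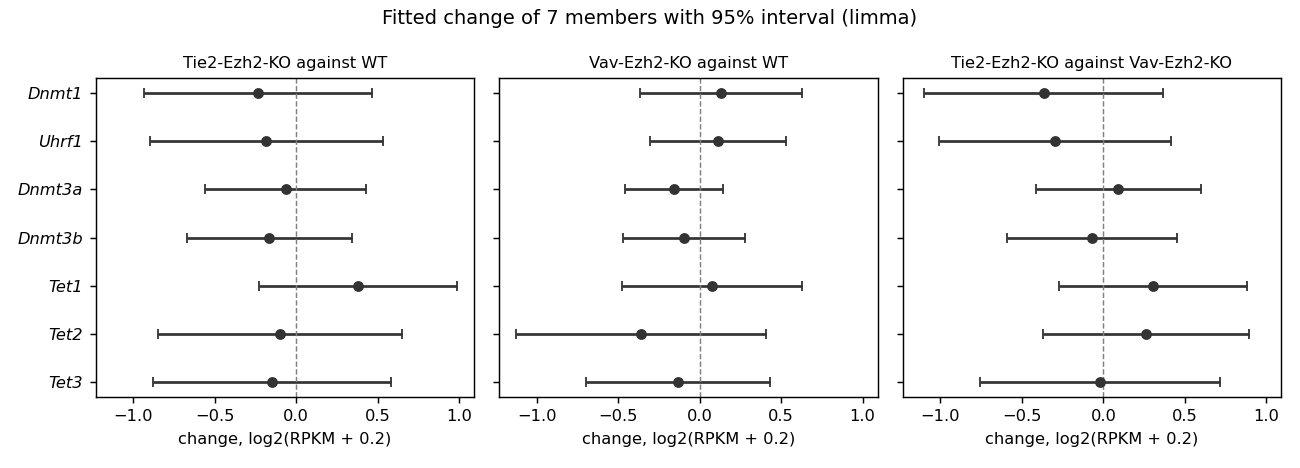
Fitted difference in log2(RPKM + 0.2) of the 7 tested genes (points) with the 95% interval from limma (bars), in 3 comparisons of 5 against 5 libraries. Every interval spans 0 (dashed line).

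The groups of 5 libraries overlapped for every tested member, while *Dnmt1*, *Uhrf1* and *Tet1* were apart between the smaller WT groups. Groups were apart for 26.0% of all genes tested between the WT groups, against 1.41% to 5.23% in comparisons of 5 against 5 libraries. Separation was thus more frequent between the WT groups for all genes, and the contrast does not single out these members. Over the libraries *Dnmt1*, *Uhrf1*, *Dnmt3a* and *Dnmt3b* varied together. Over 15 libraries the log2(RPKM + 0.2) of *Dnmt1* and *Uhrf1* gave r = 0.937 (permutation p = 1e-05, the smallest that 100000 permutations give; 0.00017 after Benjamini-Hochberg adjustment over the 17 relations computed) and rho = 0.893 (permutation p = 2e-05, adjusted 0.00034 over the same 17 relations). The r of *Dnmt1* and *Uhrf1* was 0.911 without Tie2-Ezh2-KO replicate 9 and Vav-Ezh2-KO replicate 28, the libraries farthest from the median of *Dnmt1*, and 0.925 within groups. The other 5 pairs among *Dnmt1*, *Uhrf1*, *Dnmt3a* and *Dnmt3b* had r of 0.692 to 0.833 and rho of 0.675 to 0.836, with adjusted permutation p of 0.00113 to 0.00522 for r and 0.00127 to 0.0138 for rho. Without the libraries farthest from the median these r were 0.524 to 0.764, the lowest being that of *Uhrf1* with *Dnmt3a*.

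These genes also moved with a property of the libraries that is not specific to them. In each library the median deviation from the gene's mean over libraries (log2) was taken for 2355 genes longer than 4000 bp and for 3430 genes shorter than 2000 bp, among 9882 genes with a mean of at least 1 RPKM, members left out. The long genes exceeded the short ones by 0.54 in Tie2-Ezh2-KO replicate 13 and fell short of them, at -0.52, in Tie2-Ezh2-KO replicate 9, with -0.25 to 0.20 in the other 13 libraries. These are the libraries in which *Dnmt1*, *Uhrf1*, *Dnmt3a* and *Tet3* were at or near their extremes. The measure did not separate the groups, with means of 0.01 ± 0.39 (SD, n = 5) in Tie2-Ezh2-KO, -0.05 ± 0.13 (SD, n = 5) in Vav-Ezh2-KO and 0.05 ± 0.13 (SD, n = 5) in WT libraries (two-sided exact permutation tests, p = 0.254 to 0.833).

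Its correlation with the level over 15 libraries was r = 0.889 for *Dnmt3a* (adjusted permutation p = 0.00068), 0.815 for *Uhrf1* (0.00156), 0.759 for *Tet3* (0.00189), 0.746 for *Dnmt1* (0.00283) and 0.669 for *Dnmt3b* (0.00812). Spearman's rho was 0.668, 0.704, 0.775, 0.604 and 0.671 in that order, with adjusted permutation p of 0.00422 to 0.0305. For *Tet2* (r = 0.439, rho = 0.375) and *Tet1* (r = 0.376, rho = 0.354) the adjusted permutation p was 0.106 and 0.17 for r, and 0.18 and 0.198 for rho. Without Tie2-Ezh2-KO replicates 9 and 13, r was 0.652 for *Dnmt3a*, 0.553 for *Uhrf1*, 0.542 for *Dnmt3b*, 0.521 for *Tet3* and 0.449 for *Dnmt1*, so that these relations rest in part on those libraries. With the length difference removed from both, *Dnmt1* and *Uhrf1* still gave r = 0.852, while the other 5 pairs gave 0.287 (*Dnmt3a* and *Dnmt3b*) to 0.505 (*Dnmt1* and *Dnmt3b*). What sets the length difference was not tested.

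**Figure D3:**
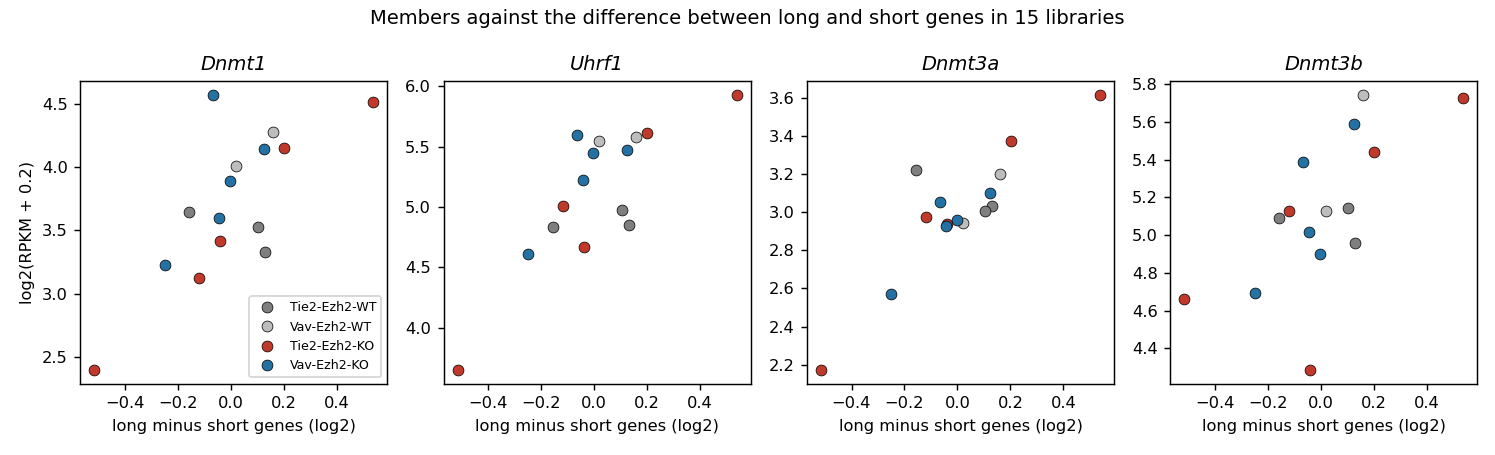
log2(RPKM + 0.2) of *Dnmt1*, *Uhrf1*, *Dnmt3a* and *Dnmt3b* in each of 15 libraries against the difference between long and short genes in that library (log2), colored by group. Tie2-Ezh2-KO replicate 9 is at the far left (-0.52) and replicate 13 at the far right (0.54) of each panel.

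With the length difference as a covariate, a setting chosen after seeing the data, no member passed the threshold either. The difference in *Uhrf1* between Tie2-Ezh2-KO and Vav-Ezh2-KO was then -0.43 (standard error 0.14, adjusted p = 0.0893 with limma), with an adjusted p of 0.0893 to 0.949 over the settings tried. For *Dnmt1* it was -0.50 (standard error 0.18, adjusted p = 0.121 with limma), with 0.121 to 0.897 over the settings tried.

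*Dnmt1* and *Uhrf1* serve DNA replication, and their levels were set beside the mean of 20 replication and cell cycle genes in each library. The summed level of these genes was 2746 to 3237 RPKM, lowest in Tie2-Ezh2-KO replicate 9 and highest in replicate 13. The mean gave r = 0.773 with *Uhrf1*, 0.727 with *Dnmt1*, 0.809 with *Dnmt3a* and 0.442 with *Dnmt3b* (adjusted permutation p = 0.00258, 0.00384, 0.00189 and 0.106). Spearman's rho was 0.571, 0.582, 0.511 and 0.389, with adjusted permutation p of 0.0374, 0.0361, 0.0638 and 0.172. Without Tie2-Ezh2-KO replicates 9 and 13, r was 0.348, 0.355, 0.35 and 0.0936, so that the relation rests on these libraries. With the length difference removed from both, r over the 15 libraries was 0.424, 0.383, 0.472 and -0.119 in the same order.

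By likeness of pattern over the 15 libraries, among 9885 genes with a mean of at least 1 RPKM, the closest genes to *Dnmt1* were *Uvrag* (r = 0.958), *Csnk1d* (r = 0.956) and *2610301G19Rik* (r = 0.953), and *Uhrf1* ranked 9, *Dnmt3a* 416 and *Dnmt3b* 677. The closest to *Uhrf1* were *Med25* (r = 0.973), *Ap1b1* (r = 0.966) and *Ncbp1* (r = 0.963), with *Dnmt1* at rank 27, *Dnmt3a* at 422 and *Dnmt3b* at 873. *Dnmt3a* was most like *Acly* (r = 0.975), *Egln2* (r = 0.968) and *Dpp3* (r = 0.967), and *Dnmt3b* most like *Tie1* (r = 0.960), *Prkd2* (r = 0.947) and *Ampd2* (r = 0.919). *Dnmt3b* ranked 1184 for *Dnmt3a*, so that many genes outside DNA methylation followed these genes more closely than they followed each other. An r above 0.9 was shared with 50 genes for *Dnmt1*, 103 for *Uhrf1*, 83 for *Dnmt3a* and 10 for *Dnmt3b*. These values are descriptions and carry no test.

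Because *Dnmt1* and *Uhrf1* moved together, promoter sequences of the 8 genes were searched for 4 motifs of the kind bound by E2F factors, TTTCCCGC, TTTGGCGC, TTTCGCGC and TTTGCCGC, on both strands. RefSeq promoters (GRCm38.p6, 250 bases before to 50 after a start) gave 15 windows for all 8 genes, and 2.26% of all 32851 windows held a match. Among the 8 genes *Dnmt1*, in 1 of its 3 windows, and *Uhrf1*, in 1 of its 2 windows, had one. Counted by gene, 4.05% of the 12521 genes with expression values and a window held a match. The matches are shown in 30 bases each, 5′ to 3′ on the strand of the gene with the motif in capitals: *Dnmt1* at chr9:20952824-20952853 (minus strand, 219 bases before that start, with the motif read on the other strand, within an exon annotated as UTR), *Dnmt1* at chr9:20952574-20952603 (minus strand, 34 bases after the start, within the same annotation) and *Uhrf1* at chr17:56304117-56304146 (plus strand, 185 bases before that start, within the gene).
Dnmt1 upstream: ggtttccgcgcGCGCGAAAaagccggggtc
Dnmt1 downstream: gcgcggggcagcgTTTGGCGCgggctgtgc
Uhrf1 upstream: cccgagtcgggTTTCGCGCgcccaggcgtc
The motifs were chosen with the levels of these genes known, and a match is a description of the letters, not of binding. Both windows with a match held 33 CpG, against a median of 7 over all windows, and the other windows of the 8 genes held 2 to 57.

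The proteins that work beside these enzymes were described by 10 lists with 110 genes, of which 108 are in the table. In Tie2-Ezh2-KO against WT 1 of 96 tested was past the threshold (*Ezh2*, lower), against 2.73% of all genes, and 8 had an unadjusted p under 0.05, against 1552 of all 14154 genes. In Vav-Ezh2-KO against WT it was 0 of 96 with limma, with 8 at an unadjusted p under 0.05, against 7.93% of all genes. Between Tie2-Ezh2-KO and Vav-Ezh2-KO 3 of 97 passed, all lower in Tie2-Ezh2-KO (*Rbbp4*, *Vdac1* and *Ezh2*), against 3.51% of all genes, and 12 had an unadjusted p under 0.05, against 16.6% of all genes. Between the WT groups it was 0 of 93 and for the difference between the effects 0 of 97 with limma, with 16 and 0 at an unadjusted p under 0.05, against 8.92% and 6.54% of all genes.

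For the maintenance enzymes, 10 partners were tested, among them *Pcna*, the replication clamp and the most abundant at 400.8 RPKM. None passed in Tie2-Ezh2-KO against WT with limma, 1 had an unadjusted p under 0.05, and the median difference was 0.01. *Cdca7*, which recruits the remodeler Hells, had the lowest difference (-0.46, standard error 0.13, adjusted p = 0.0944 with limma) and *Usp7*, a deubiquitinase that binds Dnmt1, the highest (0.23, standard error 0.16). In Tie2-Ezh2-KO against Vav-Ezh2-KO *Cdca7* differed by -0.49 (standard error 0.13, adjusted p = 0.0556 with limma) and *Zfp57* by 0.99 (standard error 0.36), with 0 of 10 past the threshold with limma, 2 at an unadjusted p under 0.05 and a median of 0.02.

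For the de novo enzymes, 10 of 11 partners and histone mark enzymes were tested, led by *Suv39h1* at 66.9 RPKM. In Tie2-Ezh2-KO against WT 0 passed with limma, 0 had an unadjusted p under 0.05, the median was -0.08, and differences ran from -0.30 for *Setdb1* to 0.04 for *Ehmt2*. In Tie2-Ezh2-KO against Vav-Ezh2-KO the counts were again 0 and 0, with a median of -0.01. Readers of methylated CpG (8 of 9 tested, led by *Mbd3* at 173.4 RPKM) had counts of 0 and 0 with limma and a median of 0.02 in Tie2-Ezh2-KO against WT, from -0.49 for *Mbd6* to 0.36 for *Zbtb38*. CXXC proteins, which bind unmethylated CpG (6 of 7 tested, led by *Cxxc5* at 16.5 RPKM), also had counts of 0 and 0, a median of -0.07, and differences from -0.30 for *Cxxc1* to 0.11 for *Wbp7*.

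For the Tet enzymes, 11 of 12 genes of base excision and repair after oxidation were tested in Tie2-Ezh2-KO against WT, led by *Apex1* at 73.3 RPKM. With limma 0 passed, 1 had an unadjusted p under 0.05, the median was -0.07, and differences ran from -0.85 for *Neil1* (standard error 0.33) to 0.31 for *Smug1* (standard error 0.27). Of 7 genes of cofactor supply and Tet partners, led by *Idh2* at 299.6 RPKM, 0 passed with limma, 1 had an unadjusted p under 0.05 and the median was -0.23, from -0.50 for *D2hgdh* to 0.74 for *Slc23a2*. In Tie2-Ezh2-KO against Vav-Ezh2-KO 1 of these 7, *Vdac1*, a channel of the outer mitochondrial membrane, was lower, with 79.2 to 140.6 RPKM against 155.8 to 190.7 RPKM (-0.65, standard error 0.13, adjusted p = 0.0133 with limma). This call was lost in 2 of 21 alternatives. Vav-Ezh2-WT libraries, at 167.9 and 181.4 RPKM, likewise lay above Tie2-Ezh2-WT libraries, at 84.7 to 133.6 RPKM. Between these groups 26.0% of all genes tested were apart in either direction.

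Of 10 tested genes of methyl donor supply, led by *Mat2a* at 211.6 RPKM, 0 passed with limma in Tie2-Ezh2-KO against WT, 0 had an unadjusted p under 0.05, and the median was -0.04, from -0.19 for *Ahcy* to 0.14 for *Ahcyl1*. The 20 replication and cell cycle genes, led by *Rrm2* at 488.4 RPKM, had 0 past the threshold with limma, 1 at an unadjusted p under 0.05 and a median of 0.00463, from -0.18 for *Cdc6* to 0.35 for *Ccne1*. Of 6 PRC2 core genes, led by *Rbbp7* at 460.7 RPKM, only *Ezh2* passed in Tie2-Ezh2-KO against WT, with a median of -0.28 and differences from -0.58 for *Ezh1* to -0.03 for *Rbbp7*. In Tie2-Ezh2-KO against Vav-Ezh2-KO *Rbbp4*, a histone chaperone subunit, differed by -0.76 (limma, adjusted p = 0.00478, standard error 0.13), at 29.8 to 41.6 RPKM against 49.2 to 68.8 RPKM, and *Ezh2* by -0.46 (standard error 0.11, adjusted p = 0.0269). The *Rbbp4* call held in all 21 alternatives, and that of *Ezh2* was lost in 7 of them. As with *Vdac1*, the WT groups were apart in the same direction for *Rbbp4*, at 38.7 to 40.5 RPKM in Tie2-Ezh2-WT and 57.8 and 63.4 RPKM in Vav-Ezh2-WT, and for *Ezh2*, at 30.1 to 39.5 RPKM and 41.5 and 41.95 RPKM. Of all genes tested 26.0% were apart there. The difference between the WT groups was -0.60 for *Rbbp4* (adjusted p = 0.148 with limma) and -0.24 for *Ezh2* (adjusted p = 0.700 with limma).

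Germline genes whose promoters are silenced by DNA methylation in somatic cells were also described, and 8 of the 14 in the table were tested in Tie2-Ezh2-KO against WT. With limma 0 passed and 2 had an unadjusted p under 0.05, with 6 higher, 2 lower and a median of 0.43. Between Tie2-Ezh2-WT and Vav-Ezh2-WT the median was 0.47 over 6 tested (5 higher, 1 lower), and it was 0.039 for the difference between the effects. Genes entered by exceeding 0.2 RPKM in any 1 library fitted. *Tdrd1*, *Hormad1* and, in Vav-Ezh2-KO, *Brdt* did so only in knockout libraries, *Hormad1* with 0 RPKM in every WT library. In Tie2-Ezh2-KO against WT *Dazl* did so only in WT libraries. Between the WT groups *Sycp3*, *Piwil2*, *Slc25a31* and *Ddx4* did so only in Tie2-Ezh2-WT libraries. The filter thus favors a median above 0 there, and that median was not computed without it. Without that filter the median in Tie2-Ezh2-KO against WT was 0.18 over 14 genes, 9 higher and 4 lower. *Tdrd1*, a gene of the piRNA pathway, had the highest difference (1.10, standard error 0.28, adjusted p = 0.0510 with limma), with 0.231 to 0.685 RPKM in Tie2-Ezh2-KO, at most 0.136 RPKM in WT and 0 to 0.469 RPKM in Vav-Ezh2-KO libraries. It passed in 4 of 21 alternatives, among them that without the filter (adjusted p = 0.0401), with a difference of 0.38 to 2.40 and an adjusted p of 0.0199 to 0.281 over them. *Dazl* had the lowest (-0.82, standard error 0.36). The filter favors these directions for *Tdrd1* and *Dazl*. The most abundant, *Slc25a31*, had a mean of 0.391 RPKM. In Vav-Ezh2-KO against WT 0 of 9 passed with limma and 0 had an unadjusted p under 0.05, with a median of -0.09. Without the filter this median was 0 over 14 genes, 4 higher and 6 lower. Such levels rest on few reads, and DNA methylation itself was not measured in these libraries.

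Over Vav-Ezh2-KO against WT the medians of the other lists were close to the -0.02 of all genes or below it. They were 0.00 for maintenance partners, -0.11 for de novo partners, -0.05 for readers, 0.02 for CXXC proteins, -0.19 for base excision, -0.21 for Tet cofactors, -0.01 for methyl donor supply, -0.09 for PRC2 and 0.00109 for replication genes. The lowest differences in these lists were those of *Zfp57* (-1.004, standard error 0.31) and *Gadd45g* (-0.57, standard error 0.30). The highest were those of *Slc23a2* (0.50, standard error 0.38) and *2810417H13Rik*, which encodes a partner of Pcna (0.37, standard error 0.13), none past the threshold with limma.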

How the data were processed

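RNA-seq of 15 E10.5 YS EMP libraries was used. The authors aligned 75 bp single-end reads from SMARTer cDNA (16 PCR cycles) to GRCm38/mm10 with TopHat2 2.0.13, counted them with featureCounts and deposited RPKM for 17454 genes on a linear scale. Whole reads were recovered from the fractions that the RPKM values form. Library totals came from their denominators in genes of short genomic span, and gene lengths from their denominators over the libraries (tolerance 0.01 reads). Expression was compared with limma 3.58.1 in R 4.3.3 (lmFit; eBayes, trend on) after log2(RPKM + 0.2), keeping any gene that exceeded 0.2 RPKM in 1 or more of the libraries fitted, at a Benjamini-Hochberg threshold of 0.05. Exact permutation tests, two-sided, and correlations with 100000 permutations used Python 3.11.15, scipy 1.17.1 and numpy 2.4.6. The code was tested on simulated data. Named genes were the 8 members, and from each list the genes past the threshold, the most abundant and those with the largest differences, with the 3 genes most alike each member. Alternatives were pseudocounts of 1 and 0.05, other filters, eBayes without trend, quantile or median scaling, array weights, limma-voom, WT libraries of the same Cre line, all libraries in one fit, each library left out, and a length covariate. The members and lists were chosen with earlier results of these data known. ATAC-seq and CUT&RUN were not used.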

Additional observations from a re-analysis of the deposited data

Results flagged for a closer look

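Among 63 sets of 5 libraries examined, 5 held 1 library far from the others (gap to the nearest library divided by the range above 0.71), and chance gives about 1 in 20. *Dnmt3b* in Vav-Ezh2-WT replicate 6 was at 53.4 RPKM, against 30.9 to 35.1 RPKM in the other WT libraries (0.812). The summed visceral endoderm markers were at 276.1 RPKM in Tie2-Ezh2-KO replicate 7, against 24.3 to 34.8 RPKM in its group (0.958), and at 199.4 RPKM in Tie2-Ezh2-WT replicate 4, against 17.9 to 25.8 RPKM in the other WT libraries (0.956). In Tie2-Ezh2-KO replicate 9, the library with the lowest *Dnmt1* and *Uhrf1*, the macrophage markers summed to 9.41 RPKM, against 18.0 to 21.4 RPKM in its group (0.716), and the megakaryocyte markers to 304.7 RPKM, against 178.7 to 186.5 RPKM (0.938). The cause of these values was not tested.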

How the results depend on the processing

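Over the alternatives, 565 of 618 values of the tested genes kept their direction and their side of the threshold, 53 reversed, and 0 passed the threshold in 90 fits with limma (lowest adjusted p 0.0893). Values below are log2 differences unless they are counts of genes, and the cause was not tested. Tie2-Ezh2-KO against WT turned with array weights (*Uhrf1* 0.00643, *Dnmt3a* 0.090, *Tet3* 0.054), limma-voom (*Tet2* 0.18) and WT of the same Cre line (*Dnmt1* 0.020, *Uhrf1* 0.086), and its 386 genes past the threshold became 230 with genes above 1 RPKM in at least 5 libraries and 187 with the same Cre line. Vav-Ezh2-KO against WT turned with WT of the same Cre line (*Dnmt1* -0.26, *Uhrf1* -0.29, *Tet1* -0.25) and the length covariate, chosen after seeing the data (*Dnmt3b* 0.060), and its 1 gene became 0 with limma-voom and 2 with the same Cre line. Tie2-Ezh2-KO against Vav-Ezh2-KO turned with a pseudocount of 1 (*Tet3* 0.014), array weights (*Dnmt3b* 0.048, *Tet3* 0.18) and limma-voom (*Tet3* 0.0998), and its 495 genes became 304 without a filter, 765 with array weights and 857 with the covariate. The difference between the effects turned with quantile normalization (*Dnmt3a* -0.018), array weights (*Tet3* 0.036), limma-voom (*Tet2* 0.28, *Tet3* 0.16) and the covariate (*Dnmt3a* -0.077), and its 26 genes became 15 without a filter, 12 with the stricter filter, 12 with quantile normalization, 15 with median scaling, 78 with array weights and 2 with limma-voom. With 1 library left out, Tie2-Ezh2-KO against WT ranged from -0.48 to 0.044 (*Dnmt1*), -0.42 to 0.15 (*Uhrf1*), -0.22 to 0.14 (*Dnmt3a*) and -0.31 to 0.075 (*Tet3*), each lowest without Tie2-Ezh2-KO replicate 13 and highest without replicate 9, and from 0.26 to 0.50 for *Tet1*. It ranged from -0.34 to 0.025 for *Dnmt3b* (highest without Tie2-Ezh2-KO replicate 11) and from -0.34 to 0.105 for *Tet2* (above 0 without Tie2-Ezh2-WT replicate 4 or 10). Vav-Ezh2-KO against WT ranged from 0.031 to 0.28 (*Uhrf1*), -0.20 to -0.070 (*Dnmt3a*), -0.60 to -0.16 (*Tet2*), -0.21 to -0.011 (*Tet3*), -0.041 to 0.29 (*Dnmt1*, below 0 without Vav-Ezh2-KO replicate 28), -0.21 to 0.038 (*Dnmt3b*, above 0 without Vav-Ezh2-WT replicate 6 or Vav-Ezh2-KO replicate 10) and -0.023 to 0.19 (*Tet1*, below 0 without Tie2-Ezh2-WT replicate 10 or Vav-Ezh2-KO replicate 10), with 1 to 2 genes past the threshold (2 without Tie2-Ezh2-WT replicates 10 or 12 or Vav-Ezh2-WT replicate 4). Tie2-Ezh2-KO against Vav-Ezh2-KO ranged from -0.61 to -0.086 (*Dnmt1*), 0.19 to 0.42 (*Tet1*), 0.12 to 0.44 (*Tet2*), -0.54 to 0.035 (*Uhrf1*), -0.058 to 0.30 (*Dnmt3a*), -0.24 to 0.12 (*Dnmt3b*) and -0.18 to 0.21 (*Tet3*), with 320 genes without Vav-Ezh2-KO replicate 28 and 969 without Tie2-Ezh2-KO replicate 9. The difference between the effects ranged from 0.028 to 0.56 (*Dnmt1*), 0.14 to 0.71 (*Uhrf1*), 0.71 to 0.99 (*Tet1*), -0.073 to 0.29 (*Dnmt3a*), -0.00524 to 0.61 (*Dnmt3b*), -0.71 to 0.17 (*Tet2*) and -0.37 to 0.13 (*Tet3*), with 8 to 32 genes. Its count was 8 to 17 without any 1 of Tie2-Ezh2-WT replicates 4, 10 and 12, Vav-Ezh2-WT replicates 4 and 6, replicates 7, 11 and 17 of Tie2-Ezh2-KO and replicates 1, 10 and 28 of Vav-Ezh2-KO. Where a fit left 1 Vav-Ezh2-WT library, it was assumed to vary like the others. The calls of *Ezh2* were lost in 11 of 22 alternatives against WT and 7 of 21 against Vav-Ezh2-KO, and that of *Vdac1* in 2 of 21, without a filter and without trend, while *Rbbp4* kept its call in 21 of 21. limma-voom shifted the median of all genes in the difference between the effects from 0.06 to 0.11. No paired analysis was possible because groups share fewer than 2 replicate numbers. With the libraries scaled to a common total (ratios of 0.919 to 1.09), 28 of 28 mean levels moved by less than 1 SD. At 14 to 160 reads, *Tet1* was the member most limited by depth after *Dnmt3l*.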
